A study of Mus musculus with 24 samples.

Results

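The genes described here are 4 SOCS family members (Socs1, Socs2, Socs3 and Cish) and 6 genes of the JAK/STAT pathway (Jak2, Stat3, Stat5a, Stat5b, Stat6 and the interleukin 10 receptor gene Il10ra), measured in BV-2 cells. Every probe whose annotated symbol was one of these 10 genes was taken. The rule found 13 probes of 24611 on the array, which carries 15161 named genes, and no gene lacked a probe. Stat3, Stat6 and Jak2 have 2 probes each and are given from the brighter one. The study asked how 2 cannabinoids alter the response of microglial cells to bacterial lipopolysaccharide (LPS). The cells are a transformed mouse line with properties of microglia, the macrophages that live in the brain. Untreated cells (Cntr) gave 6 arrays, and 6 more came from cells stimulated for 4 h with 100 ng/ml LPS. Delta-9-tetrahydrocannabinol (THC) at 10 µM for 6 h was measured on 4 arrays and cannabidiol (CBD) at the same dose and time on 2. Cells that met the cannabinoid 2 h ahead of LPS gave 4 arrays (THC_LPS) and 2 arrays (CBD_LPS). CBD and THC are isomers, of which THC has a closed pyran ring where CBD has a free phenol. All cells were of 1 line, and no label says that replicates were separate cultures, so p-values cover only the spread from array to array, which may be technical.

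Cytokine receptors lack kinase activity of their own and signal through Janus kinases (JAKs) bound to their tails, which phosphorylate STAT proteins that then enter the nucleus and switch on genes. SOCS proteins are made in response and close the loop, by inhibiting the kinases, by occupying receptor sites or by directing the receptor complex to degradation. In macrophages and microglia the interleukin 10 receptor, with STAT3, is known for restraining the response to LPS.

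The members lie on mouse chromosomes 9 (Cish and Il10ra), 10 (Socs2 and Stat6), 11 (Socs3, Stat3, Stat5a and Stat5b), 16 (Socs1) and 19 (Jak2) in RefSeq's GRCm38.p6. The array probes report mature RNA of these genes, not their promoters. Cish and Socs3 had the largest differences between LPS and Cntr among the members, and their promoters are shown for the STAT-type motif TTCNNNGAA, which reads the same on both strands and whose matches stand in capitals. Each stretch has 200 bases, from 180 before to 20 after the start site in the RefSeq table.
Cish, chr9:107296479-107296678, + strand: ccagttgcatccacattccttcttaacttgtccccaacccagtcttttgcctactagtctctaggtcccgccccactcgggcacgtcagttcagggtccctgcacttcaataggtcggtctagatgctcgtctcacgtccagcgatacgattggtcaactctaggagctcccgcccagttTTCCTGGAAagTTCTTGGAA
Socs3, chr11:117969347-117969546, - strand: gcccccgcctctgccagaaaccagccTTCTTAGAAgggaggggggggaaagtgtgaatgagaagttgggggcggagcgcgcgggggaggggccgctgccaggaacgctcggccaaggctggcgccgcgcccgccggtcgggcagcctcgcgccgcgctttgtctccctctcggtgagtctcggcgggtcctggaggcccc
The full window searched was 250 bases before to 50 bases after each start site. A promoter was in the table for 8 of the 10 members, in 10 windows. Cish held TTCCTGGAA from base 1 after the start (chr9:107296659-107296667) and TTCTTGGAA from base 12 (chr9:107296670-107296678). Socs3 held TTCTTAGAA at base -154 (chr11:117969512-117969520). The windows of the other 6 genes held no match, and TTCNNNNGAA, searched likewise on both strands, had none in any of the 10 windows. Over all 32851 promoters of the table, 8.3% held TTCNNNGAA and 6.95% held TTCNNNNGAA. Counted by gene, 9.55% and 8.01% of 27025 genes held them in at least 1 promoter. These are letter matches and show no binding.

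Each level below is a normalized log2 signal, after background correction and quantile normalization. Levels of different probes are not comparable with each other. The lowest value on any array was 7.54, so that folds of dim genes are understated. Between 40.6% and 44.8% of probes were detected per array (detection p under 0.05), and pairs of arrays correlated at 0.957 to 0.998. Of the microglia markers chosen, 9 of 10 measured were detected on at least 1 array. Trem2 lay between 12.45 and 13.96 on all arrays, whereas P2ry12 was detected on none. Itgam was detected on 4 arrays and Tmem119 on 13, neither above 7.84. Markers of oligodendrocytes (3 measured), fibroblasts (4) and lymphocytes (3) were detected on no array, 1 of 4 astrocyte markers (Aldh1l1) and 1 of 3 neuron markers (Tubb3) were. Some microglia markers moved with the treatments. With LPS 1 of 10 rose and 1 fell, where 12.9% of all probes were called. These were Cx3cr1, a chemokine receptor (log2 0.51, adjusted p = 0.0441), and Tmem119 (log2 -0.06, adjusted p = 0.0325). C1qa, a complement subunit, was lower with CBD than in Cntr (log2 -1.16, adjusted p = 0.0131), where 2.60% of all probes were called. In CBD_LPS versus Cntr 3 of 10 fell, beside 6.67% of all probes. They were C1qa (-1.21), C1qb (-1.14) and Tmem119 (-0.12). In THC_LPS versus Cntr Tmem119 fell (log2 -0.11, adjusted p = 7.81e-04) and Ptprc rose (0.33, adjusted p = 0.0144), where 11.2% of all probes were called. Both were also called in THC_LPS versus THC, beside 7.86% of all probes. Between CBD_LPS and LPS 1 was called, Cx3cr1 (log2 -0.98, adjusted p = 0.0238), where 3.23% of all probes were. With median scaling both Cx3cr1 calls were lost (adjusted p = 0.182 and 0.0508). So were both Ptprc calls (0.178 and 0.0608) and that of Tmem119 in THC_LPS versus THC (0.135). The part of these markers in the results below was not tested.

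The arrays also differed within groups. The main component of the residuals, over probes detected on all arrays, held 38.2% of their spread, and 7 arrays scored over 10 on it, namely Cntr replicates 1 and 4, LPS replicates 1 and 2, THC replicate 3 and THC_LPS replicates 2 and 4. The CBD groups have 2 arrays each, whose scores mirror each other by construction, so their place on this component cannot be told apart from treatment. THC replicate 1 stood apart in another way, with Il1b, the interleukin 1 beta gene, at 8.94 against 7.68 to 7.78 on the other THC arrays and Tnf, the tumour necrosis factor gene, at 11.73 against 9.88 to 10.23. What set these arrays apart was not tested. In the fits below called "without the high arrays", LPS replicates 1 and 2 and THC_LPS replicates 2 and 4 were left out.

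LPS alone was compared with Cntr to see which of these genes the endotoxin moved. A gene was called where limma gave an adjusted p (Benjamini-Hochberg, over every probe tested) under 0.05. Of the 10 members 6 rose (Socs1, Socs3, Cish, Jak2, Stat3 and Il10ra) and 2 fell (Stat5a and Stat6). Over all probes 12.9% were called, 5.31% higher and 7.54% lower. With dim probes filtered 27.8% of those kept were called, and 9 of the 10 members were detected on some array. The median log2 difference was 0.65 over the members and 0 over all probes. In the 6 that rose no LPS array overlapped a Cntr array, which held in that direction for 3.89% of all probes.

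Socs3, an inhibitor of JAK signalling downstream of the interleukin 6 receptor family, had a level of 8.15, 8.34 and 8.47 in Cntr (lowest, median, highest). The LPS arrays lay at 11.88, 12.55 and 13.33. All 6 stimulated arrays were thus far above the untreated ones. The difference was 4.27 ± 0.311 in log2 (SE, a 19.3-fold rise, adjusted p = 9.44e-09).

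Cish, which occupies STAT5 docking sites on cytokine receptors, was near the array floor in Cntr, at 7.83, 7.85 and 7.87. With LPS it lay at 10.39, 11.17 and 13.17, a 13.6-fold rise (log2 3.76 ± 0.407, adjusted p = 1.65e-06). The rise was seen on every LPS array, and its size varied between them, with an SD of 1.08 (n = 6) beside 0.494 for Socs3. LPS replicates 1 and 2, which scored over 10 on the residual component, had 12.71 and 13.17, and the other 4 had 10.39 to 11.21. The means of these arrays were 12.94 and 10.95. The rise was 3.10 in log2 without the high arrays (adjusted p = 1.45e-07).

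Socs1, an inhibitor of JAK kinases best known in interferon signalling, rose less. It measured 8.05, 8.17 and 8.27 in Cntr and 8.37, 8.59 and 9.06 with LPS, a 1.41-fold rise (log2 0.49 ± 0.0946, adjusted p = 9.46e-04). The Socs1 call was lost when arrays were scaled to a common median in place of quantiles (adjusted p = 0.151). Socs2, known for restraining growth hormone signalling, overlapped between the groups, at 9.81, 9.97 and 10.21 in Cntr and 9.82, 10.12 and 10.78 with LPS. Its log2 difference was 0.21 (95% interval -0.10 to 0.53, adjusted p = 0.479).

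**Figure D1:**
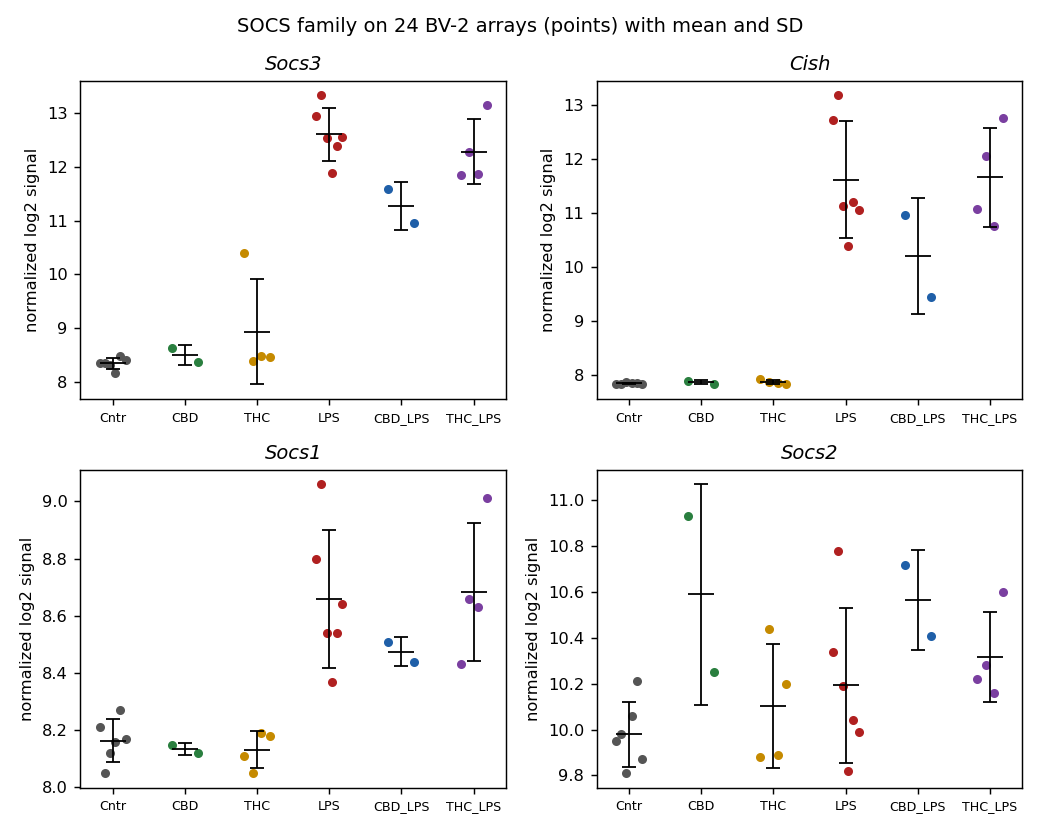
Normalized log2 signal (vertical axes, separate scales) of Socs3, Cish, Socs1 and Socs2 in the 6 groups; points are arrays, and the bars are the group mean with 1 SD. Socs3 and Cish were high in the 3 groups with LPS, with CBD_LPS at 10.95 and 11.58 for Socs3, and THC replicate 1 stood apart for Socs3 at 10.40.

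Jak2, the kinase bound to many cytokine and growth factor receptors, measured 9.18, 9.27 and 9.38 in Cntr. LPS arrays lay at 10.02, 10.47 and 11.92, above every Cntr array. The rise was 2.85-fold (log2 1.51 ± 0.282, adjusted p = 7.06e-04). LPS replicates 1 and 2 again were highest, at 11.64 and 11.92, against 10.02 to 10.63 on the other 4. The rise was 1.01 in log2 without the high arrays (adjusted p = 6.45e-05). The second Jak2 probe was detected on no array.

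Stat3, the STAT of interleukin 6 and interleukin 10 signalling, lay at 10.15, 10.57 and 10.74 in Cntr and within a narrow band of 11.27, 11.30 and 11.39 with LPS. It rose 1.74-fold (log2 0.80 ± 0.116, adjusted p = 4.64e-05). Its second probe, also detected on all 24 arrays, moved the same way by 0.70 ± 0.154 (adjusted p = 0.00311). On the brighter probe the Stat3 signal varied little between LPS arrays (SD 0.0474, n = 6), against SDs of 0.809 for Jak2 and 1.08 for Cish. The second Stat3 probe varied more, from 10.64 to 11.42 with LPS (SD 0.257), so the narrow band held for 1 probe only.

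Stat6, the STAT of interleukin 4 signalling, went the other way. It measured 8.63, 8.90 and 9.12 in Cntr and 8.35, 8.54 and 8.71 with LPS, with some overlap. The level fell by 0.37 in log2 (SE 0.0917, adjusted p = 0.00855), and the call was lost with median scaling (adjusted p = 0.123). Stat5a, which acts downstream of GM-CSF and prolactin receptors, fell by 0.19 in log2 (SE 0.057, adjusted p = 0.0333), from 8.04, 8.14 and 8.43 to 7.91, 7.94 and 8.18. Its adjusted p was the highest of the 8, and the call was lost without LPS replicate 1, 3, 4 or 6 or Cntr replicate 4, 5 or 6 (adjusted p up to 0.0799). Of 11 other settings 9 kept the Stat5a call, and median scaling was among those that lost it (adjusted p up to 0.136). The probe of its close relative Stat5b was detected on no array and stayed between 7.60 and 7.67, so that its level is unknown here.

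Il10ra, the ligand-binding chain of the interleukin 10 receptor, measured 7.86, 7.92 and 8.07 in Cntr. With LPS it lay at 8.77, 8.88 and 9.90, with no overlap, a 2.29-fold rise (log2 1.20 ± 0.186, adjusted p = 1.11e-04). The values of LPS replicates 1 and 2 were 9.62 and 9.90, and the other 4 lay between 8.77 and 8.90. The rise was 0.89 in log2 without the high arrays (adjusted p = 1.04e-05). In log2, the Il10ra difference kept its call in all fits that left out 1 array, between 1.05 and 1.27.

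**Figure D2:**
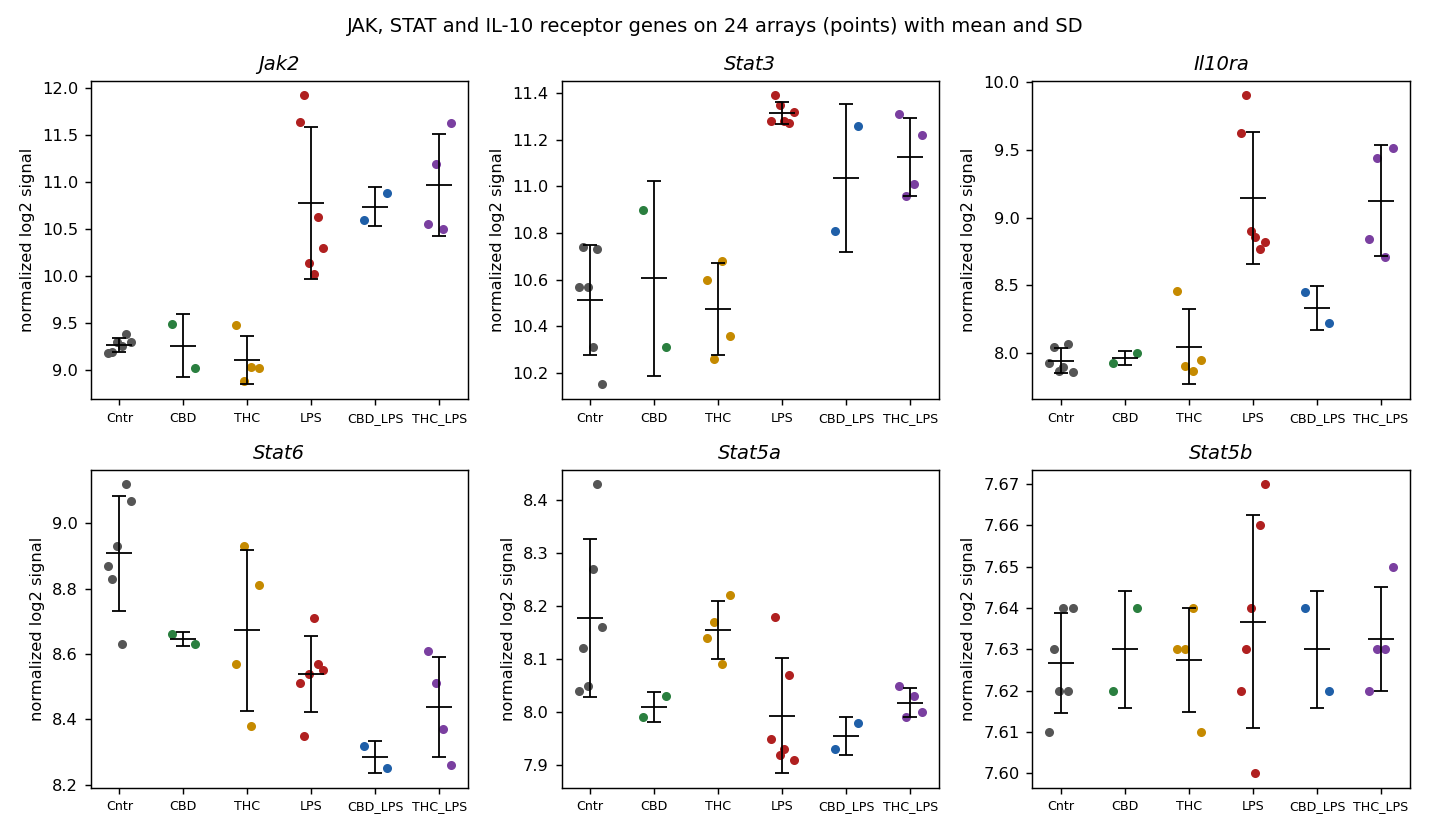
Normalized log2 signal (vertical axes, separate scales) of Jak2, Stat3, Il10ra, Stat6, Stat5a and Stat5b in the 6 groups; points are arrays, and the bars are the group mean with 1 SD. Jak2, Stat3 and Il10ra were higher with LPS than in Cntr, Stat6 and Stat5a were lower, and Stat5b stayed at the floor.

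Without LPS neither cannabinoid moved a member past the threshold. In CBD versus Cntr limma called 0 of 10 members, where 2.60% of all probes were called, and 2 members had an unadjusted p under 0.05. They were Socs2 and Stat5a. The share of all probes with an unadjusted p under 0.05 was not counted, here or in later comparisons. Member counts at that threshold therefore show no excess over the array. Socs2 measured 10.93 and 10.25 on the CBD arrays, both above the Cntr range of 9.81 to 10.21 (log2 difference 0.61, 95% interval 0.16 to 1.05, adjusted p = 0.160). Non-overlap of these groups occurred in 13.0% of all probes. Without CBD replicate 2 the Socs2 difference was 0.95 with an adjusted p of 0.043, and it rested then on 1 CBD array, assumed to vary like the other groups. Scaled to a common median the Socs2 difference was 0.05 (adjusted p = 0.916). Stat5a measured 7.99 and 8.03, below its Cntr range (log2 -0.17, adjusted p = 0.383).

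Socs3 and Cish had levels close to Cntr in CBD, at 8.63 and 8.37 for Socs3 and 7.90 and 7.84 for Cish. The 95% interval of the CBD difference was -0.76 to 1.08 in log2 for Socs3 and -1.18 to 1.23 for Cish, so that moderate changes would not have been detectable with 2 arrays.

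In THC versus Cntr limma called 0 members, where 0.00406% of all probes were called, and 1 member (Stat6) had an unadjusted p under 0.05. Stat6 was at 8.57, 8.93, 8.38 and 8.81 on the THC arrays, overlapping Cntr (log2 -0.23, adjusted p = 1). Socs3 measured 10.40, 8.38, 8.48 and 8.45, and only THC replicate 1 lay above the Cntr range by more than the Cntr spread. The Socs3 difference of 0.59 in log2 (adjusted p = 1) was 0.10 without that array. Il10ra showed the same array apart, with 8.46 against 7.91, 7.87 and 7.95. Cish on THC replicate 1 was 7.93, beside 7.88, 7.86 and 7.84.

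The comparison of CBD_LPS with LPS asked whether CBD given first altered the LPS level. No member was called, where 3.23% of all probes were. At an unadjusted p under 0.05, for which no share of all probes was counted, 3 of 10 members passed. All 3 were lower with CBD (Socs3, Cish and Il10ra). The median log2 difference over the members was -0.22, against 0 over all probes. The groups did not overlap for 4 members (Socs3, Il10ra, Stat3 and Stat6), all lower, where 7.01% of all probes were separate in that direction.

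Socs3 measured 11.58 and 10.95 in CBD_LPS, both below the lowest LPS array at 11.88. The difference was -1.34 in log2 (95% interval -2.26 to -0.42), a change of -60.5% in signal, with an unadjusted p of 0.00656 and an adjusted p of 0.108. It did not pass the threshold under any alternative setting tried, and without CBD_LPS replicate 2 it was -1.03 (adjusted p = 0.717). The value was -1.08 without the high arrays (adjusted p = 0.212).

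Il10ra measured 8.45 and 8.22 in CBD_LPS, below the lowest LPS array at 8.77. It differed by -0.81 in log2 (95% interval -1.36 to -0.26, adjusted p = 0.103). With the residual component as a covariate the adjusted p was 0.024 at the same difference. Without the high arrays the difference was -0.50 (adjusted p = 0.0448), and with all 7 arrays that scored over 10 left out it was -0.50 (adjusted p = 0.0678). The component was drawn from the residuals of these same arrays, Il10ra included. As a covariate it leaves the difference unchanged by construction. The high arrays were picked by it and held the highest Il10ra signals of the LPS-treated arrays. None of these fits is separate evidence of a difference.

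Cish was spread more widely, at 10.96 and 9.45 in CBD_LPS. The first of these lay among the LPS arrays and the second lay below all of them. The difference was -1.41 in log2 (95% interval -2.61 to -0.20, adjusted p = 0.222), and it was -0.74 (adjusted p = 0.21) without the high arrays. It was -0.65 without CBD_LPS replicate 2 and -2.16 without CBD_LPS replicate 1. Jak2 lay at 10.59 and 10.88, within the LPS range (log2 -0.04, 95% interval -0.87 to 0.79). Without the high arrays the sign of the Jak2 difference turned, to 0.46 (adjusted p = 0.194), the other 4 LPS arrays having 10.02 to 10.63. Socs1, at 8.51 and 8.44, was within the LPS range too.

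Stat3 measured 10.81 and 11.26 in CBD_LPS, just below the LPS band that began at 11.27 (log2 -0.28, adjusted p = 0.466). Its second probe overlapped, at 10.30 and 11.26 against 10.64 to 11.42. Stat6 measured 8.32 and 8.25 against 8.35 for the lowest LPS array (log2 -0.25, adjusted p = 0.375). Socs2 was the member with the highest positive difference, at 10.72 and 10.41 against 9.82 to 10.78 in LPS (log2 0.37, adjusted p = 0.448).

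In THC_LPS versus LPS no member was called by limma, none had an unadjusted p under 0.05, and 0% of all probes were called. Socs3 was at 11.84, 12.27, 11.87 and 13.15, overlapping the LPS arrays (log2 -0.32, 95% interval -1.05 to 0.40). Cish was at 11.08, 12.05, 10.75 and 12.75 (log2 0.05, 95% interval -0.91 to 1.00). Il10ra was at 8.84, 9.44, 8.71 and 9.51 (log2 -0.02, 95% interval -0.45 to 0.42). The groups overlapped for all 10 members, and were apart for 0.910% of all probes. For Cish, Jak2 and Il10ra, THC_LPS replicates 2 and 4 were the high ones, as were LPS replicates 1 and 2, with Jak2 at 11.19 and 11.63 there and 10.55 and 10.50 on the other THC_LPS arrays. Without the high arrays the log2 differences were -0.49 for Socs3, -0.03 for Cish and -0.06 for Il10ra.

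**Figure D3:**
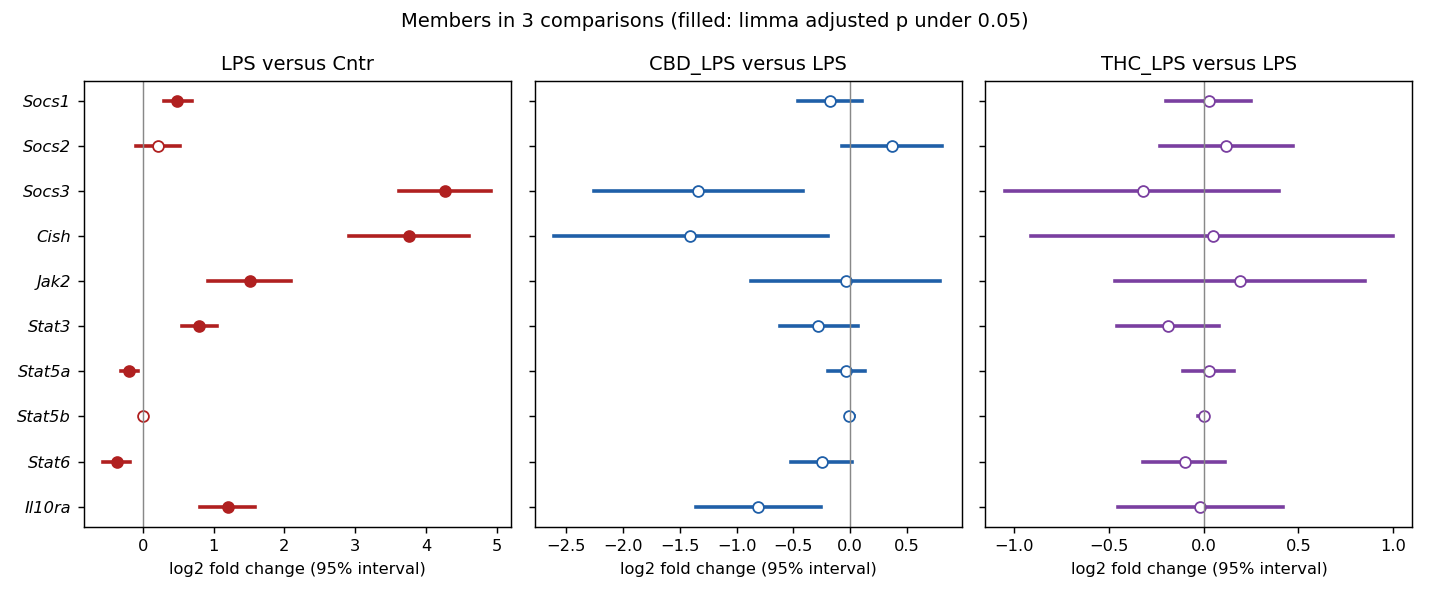
Log2 fold change (horizontal axes, a separate scale in each panel) of the 10 members with 95% intervals in LPS versus Cntr, CBD_LPS versus LPS and THC_LPS versus LPS; filled points have a limma adjusted p under 0.05. The first panel has 8 filled points and the other panels none. In the CBD_LPS panel the intervals of Socs3 (-1.34), Cish (-1.41) and Il10ra (-0.81) lie below 0.

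**Figure D4:**
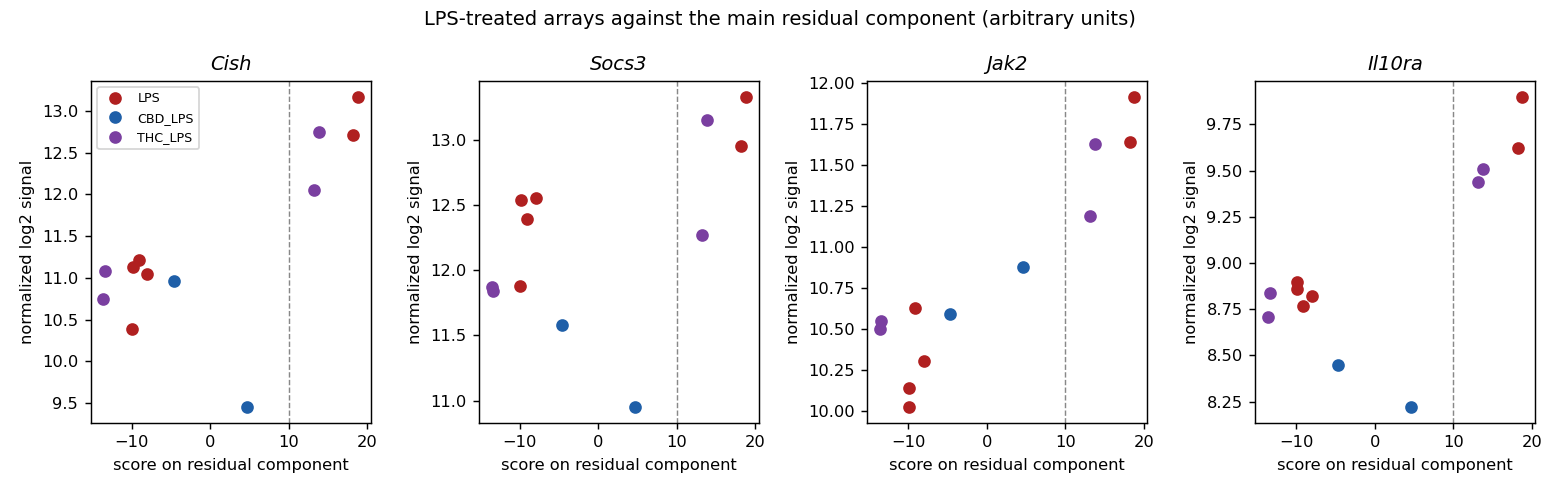
Normalized log2 signal (vertical axes, separate scales) of Cish, Socs3, Jak2 and Il10ra on the 12 arrays of the LPS, CBD_LPS and THC_LPS groups against the score of each array on the main residual component (horizontal axis, arbitrary units, dashed line at 10). The 4 arrays over 10 held the highest Cish, Jak2 and Il10ra signals, and for Socs3 THC_LPS replicate 2 at 12.27 lay among the arrays under 10.

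The response to LPS was also set against matched cells. In CBD_LPS versus CBD 1 member, Socs3, was called higher, where 2.72% of all probes were called, 1.43% higher (52.6% of calls, and 96.1% with median scaling). Its difference was 2.77 in log2 (95% interval 1.64 to 3.89, a 6.81-fold rise, adjusted p = 0.00615). Cish and Jak2 had differences of 2.33 (adjusted p = 0.0916) and 1.48 (adjusted p = 0.132) with groups apart, as in 37.7% of all probes. The Socs3 call was lost without CBD_LPS replicate 1 (adjusted p = 0.0536) or CBD replicate 2 (adjusted p = 0.0602). In THC_LPS versus THC 6 members were called higher, namely Socs1, Socs3, Cish, Jak2, Stat3 and Il10ra, and 7.86% of all probes were called, 3.49% higher (44.5% of calls, and 90.4% with median scaling). Socs3 rose 10.2-fold there (log2 3.35, and 3.84 without THC replicate 1) and Cish 13.7-fold (log2 3.78, and 3.04 without the high arrays). Il10ra rose by 1.08, by 1.22 without THC replicate 1 and by 0.73 without the high arrays. Stat3 was called on its brighter probe (log2 0.65), and its second probe had an adjusted p of 0.0584.

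Against Cntr, CBD_LPS had 4 members higher (Socs3, Cish, Stat3 and Jak2) and Stat6 lower, where 12.5% of all probes were called, 5.81% higher and 6.67% lower. Of the probes called 46.6% were higher, and 68.1% were with median scaling. Socs3 was 2.93 higher in log2 (adjusted p = 1.28e-04), Cish 2.36 (adjusted p = 0.00895), Jak2 1.47 (adjusted p = 0.0175) and Stat3 0.53 (adjusted p = 0.0393). The second Stat3 probe was not called and its groups overlapped (log2 0.44, adjusted p = 0.249). Stat6 fell by 0.62 (adjusted p = 0.0027). Of these calls only that of Socs3 was kept in every fit that left out 1 array. Over those fits the log2 difference ran from 2.61 to 3.24 for Socs3, 1.6 to 3.11 for Cish and 1.33 to 1.62 for Jak2. It ran from 0.3 to 0.75 for Stat3 and from -0.68 to -0.58 for Stat6. THC_LPS against Cntr had 6 members higher and Stat6 lower (log2 -0.47, adjusted p = 0.00365), where 11.2% of all probes were called, 4.71% higher and 6.50% lower (42.0% of calls higher, and 61.6% with median scaling). The Stat6 call was lost without the high arrays (adjusted p = 0.0715), and Stat3 was lost with all 7 arrays over 10 left out (adjusted p = 0.0915). Median scaling lost both calls (adjusted p = 0.234 for Stat6 and 0.0891 for Stat3). The comparisons share the Cntr arrays.

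Whether the LPS response itself differed with a cannabinoid was tested as an interaction in limma. With CBD 0 members were called, where 0.00813% of all probes were, and 2 had an unadjusted p under 0.05. Those were Socs3, whose response was smaller with CBD (log2 interaction -1.50, 95% interval -2.80 to -0.20, adjusted p = 1), and Il10ra (-0.82, 95% interval -1.60 to -0.05, adjusted p = 1). The values were -1.24 and -0.52 without the high arrays. With THC 0 members and 0% of all probes were called, and 0 members had an unadjusted p under 0.05.

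CBD and THC, at 1 dose and time, were compared in 2 pairs. Without LPS no member was called, where 0.740% of all probes were, and 1 had an unadjusted p under 0.05 (Socs2, log2 0.49 higher with CBD, 95% interval 0.02 to 0.96, adjusted p = 0.481). With LPS again 0 were called beside 0.740% of all probes, and 3 had an unadjusted p under 0.05. The log2 differences of CBD_LPS from THC_LPS were -1.02 for Socs3 (95% interval -1.99 to -0.04, adjusted p = 0.419), -1.45 for Cish (-2.73 to -0.17, adjusted p = 0.356) and -0.79 for Il10ra (-1.38 to -0.21, adjusted p = 0.233). Without the high arrays they were -0.58 for Socs3 (adjusted p = 0.753), -0.71 for Cish (0.476) and -0.45 for Il10ra (0.299). For Socs3 and Il10ra both CBD_LPS arrays lay below all 4 THC_LPS arrays, and for Cish they overlapped. Over all probes 8.69% were apart in that direction. Such intervals do not show that the isomers act alike.

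In group means, the levels of Socs3 ran in the order LPS, THC_LPS, CBD_LPS, THC, CBD and Cntr, and of these neighbours LPS and THC_LPS overlapped, as did THC, CBD and Cntr. For Il10ra the order was the same, with CBD_LPS overlapping THC through THC replicate 1. Cish ran THC_LPS, LPS, CBD_LPS, THC, CBD and Cntr, where the 3 LPS-treated groups overlapped and all lay above the rest. Within groups, Jak2 and Il10ra varied together over the 24 arrays (r = 0.88 after group means were removed), as did Cish with Il10ra (r = 0.87), Cish with Jak2 (r = 0.85) and Socs1 with Cish (r = 0.83). These arrays share the residual component described above, and the values are descriptions.

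Over all 24 arrays the probes most like a member were named by Pearson's r, which is mostly set by the contrast of LPS with the rest. The closest to Socs3 were Cd40 (r = 0.985), a costimulatory receptor, and Il1b (0.983). Nlrp3, an inflammasome sensor, was closest to Cish (0.981), followed by Il4i1 (0.981). Those closest to Socs1 and Il10ra were Vcam1 (0.97), an adhesion molecule, and Edn1 (0.976), the endothelin 1 precursor. Stat3 came with Sertad2 (0.93), Stat6 with Gapt (0.873) and Stat5a with Tnfrsf17 (0.792).

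Other genes of the pathway were taken from fixed lists, and the numbers called with LPS stand beside the 12.9% of all probes called in LPS versus Cntr. In CBD versus Cntr 2.60% of all probes were called, and in CBD_LPS versus LPS 3.23%. With dim probes filtered these shares were 27.8%, 7.78% and 9.21% of those kept. Genes detected on some array were 5 of 5, 14 of 15, 9 of 20, 18 of 24 and 14 of 16 in the lists as they follow. Of 5 other JAKs and STATs measured 2 rose with LPS and 0 fell. Stat2, the interferon-signalling STAT, rose by 1.81 in log2 (adjusted p = 2.66e-06) and the kinase Tyk2 by 1.09 (adjusted p = 3.89e-06). Jak1 and Jak3 had differences of -0.01 and -0.05. Neither cannabinoid had a call in this list, alone or before LPS.

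Of 15 other SOCS, PIAS and phosphatase genes 2 rose and 2 fell with LPS. Pias3, an inhibitor of STAT3, fell by 0.59 in log2 (adjusted p = 1.66e-04), and Sh2b3, an adaptor that restrains cytokine receptor signalling, fell by 0.43 (adjusted p = 0.00306). Ptpn11, the phosphatase SHP2, rose by 0.32 with LPS (adjusted p = 0.0216) and was lower in CBD_LPS than in LPS (log2 -0.63, adjusted p = 0.010). Cbl, a ubiquitin ligase, rose by 0.14 with LPS and was also lower in CBD_LPS (log2 -0.12, adjusted p = 0.0255). In this list the other 13 genes were not called between CBD_LPS and LPS, where 3.23% of all probes were called.

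Of 20 cytokine ligands 6 rose with LPS and 0 fell. Csf3, which encodes G-CSF, was not detected in Cntr and rose at least 49.0-fold (adjusted p = 7.42e-13), Ifnb1, interferon beta, rose at least 5.11-fold (adjusted p = 6.41e-05) and Il6 rose at least 4.49-fold (adjusted p = 4.86e-05). These bounds set the mean of the 6 LPS arrays against the lowest signal detected on each Cntr array. Ebi3, a subunit of interleukin 27, rose 4.29-fold from a measured level (adjusted p = 2.24e-06). In CBD_LPS versus LPS only the dim Il7 was called (log2 0.13, adjusted p = 0.0188).

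Of 24 cytokine receptor genes 6 rose and 2 fell with LPS. Il15ra rose by 0.86 in log2 (adjusted p = 0.00557) and Il13ra1 by 0.62 (adjusted p = 0.00551), whereas Il6st, the shared gp130 chain, fell by 0.44 (adjusted p = 4.86e-04). Csf3r, the G-CSF receptor, was higher with CBD than in Cntr (log2 0.24, adjusted p = 0.0246) and higher in CBD_LPS than in LPS (0.21, adjusted p = 0.0421).

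Of 16 genes listed as STAT targets 9 rose with LPS and 0 fell. STAT activity was not measured, and whether STATs drove these rises was not tested. The largest were Tnfaip3, an inhibitor of NF-kB signalling (log2 3.64, adjusted p = 4.08e-08), Irf1, an interferon-regulated transcription factor (3.00, adjusted p = 3.32e-08), and Il4i1, a secreted amino acid oxidase (2.88, adjusted p = 2.05e-07). Il4i1 and Junb, a subunit of AP-1, were lower in CBD_LPS than in LPS (log2 -1.59, adjusted p = 0.0235, and -1.13, adjusted p = 0.0486). Cebpb rose with CBD alone (log2 0.83, adjusted p = 0.00399). Across the 5 lists, no gene was called between THC and Cntr or between THC_LPS and LPS.

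None of the 37 calls in these lists (LPS versus Cntr, CBD versus Cntr and CBD_LPS versus LPS) changed direction when arrays were scaled to a common median, but 14 were lost. In LPS versus Cntr they included Ptpn11 (adjusted p = 0.948), Sh2b3 (0.352) and Il13ra1 (0.148). In CBD_LPS versus LPS they included Ptpn11 (0.899), Cbl (0.709), Csf3r (0.185), Junb (0.229) and Il4i1 (0.094), so that of the genes named in that comparison only Il7 kept its call. Csf3r (0.513) and Cebpb (0.462) were lost in CBD versus Cntr. With the authors' log2 values 1 call was lost, that of Csf3r in CBD_LPS versus LPS (adjusted p = 0.0591).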

How the data were processed

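RNA of BV-2 cells had been hybridized by the authors to 24 Illumina MouseRef-8 arrays. They deposited for each probe the bead signal intensity, a detection p-value and a log2 value, which equals the quantile-normalized log2 signal without background correction. Groups came from the labels, which give 6, 6, 4, 4, 2 and 2 arrays, while the methods state 4 for each treatment; doses and times are from the methods. Signals were corrected with neqc (offset 16, quantile), and 1 mean per group was fitted to all 24611 probes (limma 3.58.1, R 4.3.3), with moderated two-sided tests adjusted over all probes. No probe was filtered. Where a gene had several probes, the brightest was used. Of all probes 19852 had 1 gene symbol and 4759 none. The members and lists were chosen with earlier results of these data known. List genes named are up to 4 a list with the largest called change, and Jak1, Jak3, Il1b, Tnf and Cd40 were chosen after their values were seen. The model was also run on simulated data with independent noise. Those data lacked a component shared between probes, so that run says nothing about the residual component of these arrays. Alternatives covered background, offset, scaling, dim probes, variance prior, replicate block, array weights, the groups fitted, the threshold, probe choice and each array left out. Fits on the residual component were added after seeing the data, and the component comes from the residuals of these same arrays.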

Additional observations from a re-analysis of the deposited data

Results flagged for a closer look

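Among 40 sets of a member and a group of 4 to 6 arrays, 2 had an array whose distance from its nearest neighbour took up more of the range than Dixon's 95% critical value allows; chance gives about 1 in 20. Both were THC replicate 1. Socs3 on that array was 10.40, against 8.38 to 8.48 on the other THC arrays (gap 0.951 of the range). Il10ra was 8.46, against 7.87 to 7.95 (gap 0.872 of the range). The same array had Cd40 at 9.83, against 7.79 to 7.92.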

How the results depend on the processing

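Of 2627 alternative values of the members' differences, 2569 stayed on the same side of the threshold, 37 lost a call and 21 gained one. The sign differed from that reported in 99, in none of which the member was called in either fit. In LPS versus Cntr, 8 members were called (12.9% of all probes), 5 with median scaling (6.06%), and 7 to 8 with 1 array left out. In CBD_LPS versus Cntr, 5 were called (12.5%), 3 with median scaling (4.10%), 3 with array weights (8.46%), 7 with the authors' log2 values (13.3%), 7 with dim probes filtered (27.7% of those kept), 7 with the compared groups alone, and 2 to 6 with 1 array left out. In CBD_LPS versus CBD, 1 was called (2.72%), 2 with the authors' log2 values (3.30%), 2 with dim probes filtered (7.21% of those kept), 2 at an unadjusted p of 0.005 or less (4.47%), 3 with median scaling (1.56%), 3 with the residual component as a covariate (4.58%), 3 with all arrays over 10 on it left out (3.12%), 0 with the compared groups alone (0%), and 0 to 1 with 1 array left out. In CBD_LPS versus LPS, 0 were called (3.23%), 1 with the residual component as a covariate (5.71%) and 1 with the LPS and THC_LPS arrays over 10 left out (2.65%). Both of these fits rest on a component drawn from these same data. In CBD versus Cntr, 0 to 1 were called with 1 array left out. The cause was not tested. No share of all probes was counted for the fits with 1 array left out, or for the compared groups alone in CBD_LPS versus Cntr. Those member counts thus have nothing to stand beside.

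Whether equal replicate numbers mark paired samples cannot be told here, as pairs of unequal number were not compared. Of 44 pairs of equal number 16 had deviations that correlated over 0.1 (range -0.75 to 0.77). The value of -0.75 came from CBD with CBD_LPS, where the 2 arrays of each group mirror each other by construction. With the replicate block 2 members were called in CBD_LPS versus Cntr (9.24% of all probes), Cish (adjusted p = 0.0804), Jak2 (0.119) and Stat3 (0.135) being lost. Each CBD group has 2 arrays, and a fit without 1 of them assumes that the lone array varies like the others.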
